A study of Ictalurus furcatus with 6 samples.

Results

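The chaperonin containing TCP-1 (CCT) was examined in testicular sperm of blue catfish (*Ictalurus furcatus*, D&B strain) through the transcripts of its ring subunits. The genes *tcp1*, *cct2*, *cct3*, *cct4*, *cct5*, *cct6a*, *cct7* and *cct8* were chosen by a rule on names, with earlier results of these data known. All 8 were found, 1 feature each, among the 27416 features of the expression table. The table spells *cct2*, *cct7* and *cct8* as Cct2, CCT7 and CCT8, and *cct7* was named through the table's second symbol column. All 8 passed the filter on low values that left 27255 features for testing. Their symbols matched 8 genes on 8 different chromosomes in the RefSeq annotation of the species (assembly names only were used), so the members are not neighbours in 1 cluster.

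CCT, also called TRiC, is a barrel in the cytosol made of a pair of stacked rings, and each ring holds every subunit once. It binds newly made actin, tubulin and some proteins with WD40 repeats, encloses them, and folds them while it binds and breaks down ATP. *tcp1* takes its name from the mouse t-complex, a region of the genome known for its effects on sperm, and its transcript is abundant in mouse testis, where male germ cells need much tubulin for the spindle, the manchette and the flagellum.

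The fresh-frozen group (F2 and F3) was sperm flash-frozen in liquid nitrogen. The cryopreserved group (C2, C3 and C5) was sperm that had been diluted in Hank's balanced salt solution, given methanol and frozen at a controlled rate in cryogenic straws. Both groups were thawed alike before RNA extraction, the numbers are those of the males, and C2 is the mean of 2 technical runs. F5, the third fresh-frozen sample, has no column in the expression table and was not analysed here. The study's alignment statistics list it as excluded. The question was how the sperm transcriptome differs after cryostorage. Values are given as CPM (reads of a gene scaled to the total of the library): the deposited values are called RPKM, but the columns sum to between 992942 and 997458. They were therefore treated as CPM, which is not corrected for gene length, and each gene is compared between samples and the levels of different genes are not compared. The table does not list the read depth of the libraries, and the read totals that the study gives were not used here.

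The libraries differed in their overall makeup. The median over all features was between 15.6 and 15.7 CPM in the fresh-frozen samples, 9.55 CPM in C2, 14.99 CPM in C3 and 2.03 CPM in C5, and the 10 most abundant features took 0.776% and 0.843% of the signal in F2 and F3 against 1.83% to 6.96% in the cryopreserved samples. C5 listed 2664 features at 0, F2 537, F3 99, and C2 and C3 none. Of markers of cell types that sperm samples can hold, the summed level of 11 spermatid and sperm features (10 of 13 names found) was 717 and 743 CPM in F2 and F3 but 6686 CPM in C2, 3562 CPM in C3 and 12358 CPM in C5. Of these 11 features, 8 were higher and 2 (*tekt3* and *dnah1*) were lower in all cryopreserved samples. The shares of all features with these patterns were 13.6% and 41.7%. For *tekt3* the groups were barely apart, with 165.4 CPM in C3 and 166.1 CPM in F2. *tekt1* alone gave 5292 CPM of the sum in C5. The other markers were found for 3 of 7 Sertoli names (29.8 to 33.5 CPM in fresh-frozen, 4.24 to 39.3 CPM in cryopreserved), 3 of 7 Leydig names (26.1 to 37.9 and 10.5 to 36.6 CPM), 10 of 11 names of spermatogonia and spermatocytes (568 to 620 and 268 to 647 CPM), 3 of 6 erythroid names (158 to 170 and 132 to 980 CPM) and 2 of 7 leukocyte names (152 to 166 and 219 to 333 CPM). The 2 leukocyte features went opposite ways, so their sum does not speak for both. *lcp1* was higher in all cryopreserved samples (52.5 and 37.4 CPM in F2 and F3, 107 to 312 CPM in the cryopreserved samples). *cd74b* was lower in all of them, though barely so in C3 (112.1 CPM, against 113.7 CPM in F2). In bulk samples such as these, fewer cells of a type and less RNA per cell cannot be told apart.

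All 8 CCT subunits had a positive log2 fold change between cryopreserved and fresh-frozen sperm, with a median of 1.58 on the log2(CPM + 1) scale, while the median over all 27255 features was -1.02 and 6815 of them were positive. In 7 of the 8, C2, C3 and C5 all lay above F2 and F3, a pattern that 13.6% of all features had. None of the 8 passed an FDR of 0.05 (limma with a trended prior, Benjamini-Hochberg adjustment), so no subunit was a differentially expressed gene (DEG, an absolute log2 fold change above 2 with an FDR below 0.05). By comparison, 421 of 27255 features, or 1.54%, were DEGs with higher levels in cryopreserved sperm. Before adjustment, 6 of the 8 had a limma p below 0.05, which 6.89% of all features had in the same direction. The exception to the separation of the groups was *cct8*. The number of separated subunits depended on the scaling. It was 8 when the libraries were rescaled by TMM, computed here as an unweighted trimmed mean of log ratios. There, *cct8* stood at 1.33 with its groups apart. The number was 6 under quantile normalization, where *tcp1* overlapped as well. Separation in this direction also became more frequent over all 27255 features, from 3708 to 6596 under TMM and 5543 under quantile normalization. Without F2, *cct8* was above the remaining fresh-frozen sample F3 in C2, C3 and C5, at a log2 fold change of 0.21.

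**Figure D1:**
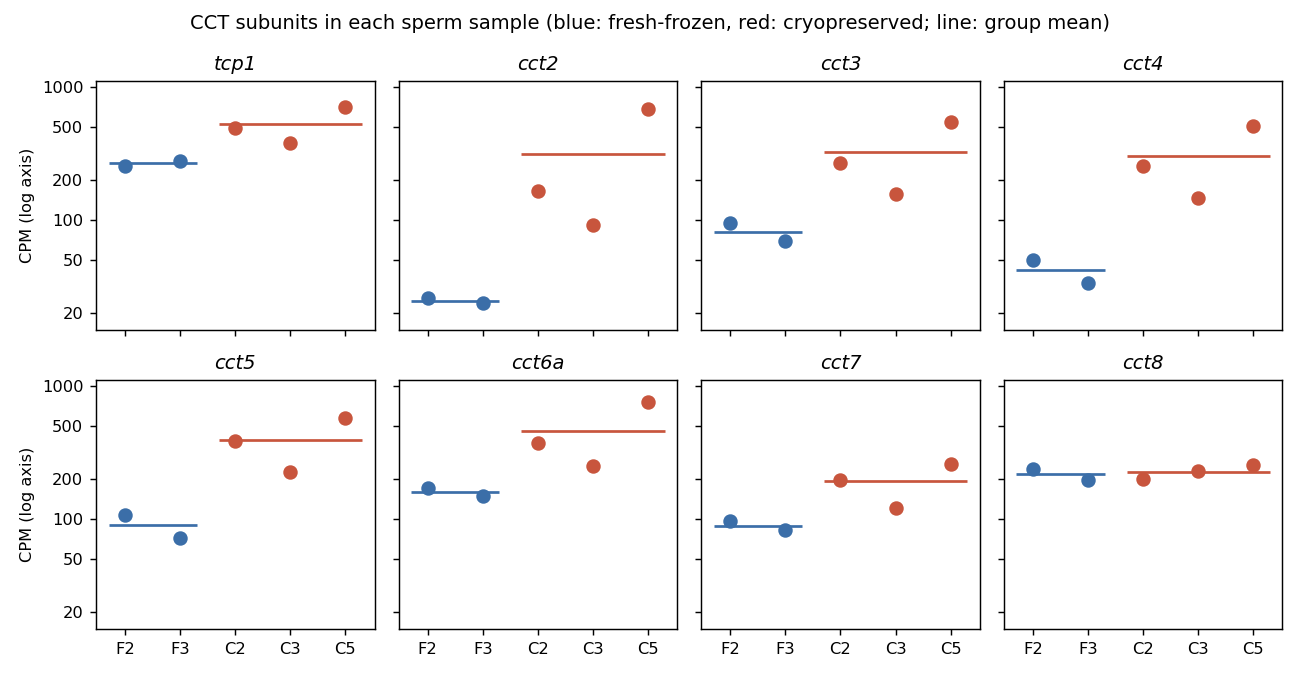
Level of each CCT subunit (CPM, log axis) in the fresh-frozen samples F2 and F3 (blue) and the cryopreserved samples C2, C3 and C5 (red); points are samples and lines are group means. In 7 panels all red points lie above both blue points, with C3 lowest and C5 highest among them, and in the *cct8* panel the groups overlap.

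In yeast and mammalian CCT, the subunits corresponding to *tcp1*, *cct2*, *cct4* and *cct5* sit together on the side of the ring that binds ATP more tightly. The subunits corresponding to *cct3*, *cct6a*, *cct7* and *cct8* form the other side. The members are described in that order.

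The beta subunit *cct2* (AUIFUG00000012527) had the largest difference of the 8. Its level was 25.9 CPM in F2 and 23.8 CPM in F3, and 164 CPM in C2, 91.2 CPM in C3 and 676 CPM in C5. Every cryopreserved sample was thus well above the fresh-frozen pair, and the cryopreserved samples themselves were far apart. The group means were 24.8 ± 1.45 CPM (SD, n = 2) and 310 ± 319 CPM (SD, n = 3), a ratio of 12.5. Against the fresh-frozen sample of the same male, the level was 6.34-fold in C2 and 3.83-fold in C3, and C5, which had no partner, was 27.2-fold the fresh-frozen mean. The log2 fold change was 3.07 (SE 0.82, 95% interval 1.28 to 4.87), and the limma FDR was 0.113. Only 2.37% of all features had a larger log2 fold change.

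The delta subunit *cct4* (AUIFUG00000024407) had the lowest FDR of the members. It stood at 50.3 CPM in F2 and 33.6 CPM in F3, against 252 CPM in C2, 145 CPM in C3 and 507 CPM in C5. The groups did not overlap, and the lowest cryopreserved value was C3, as for *cct2*. The log2 fold change was 2.66 (SE 0.65, 95% interval 1.23 to 4.09) with a limma FDR of 0.0760, which missed the threshold.

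The epsilon subunit *cct5* (AUIFUG00000007193), whose human counterpart is mutated in a hereditary sensory neuropathy, was the third member above a log2 fold change of 2. Its level was 107 CPM in F2 and 72.2 CPM in F3, and 385 CPM in C2, 227 CPM in C3 and 570 CPM in C5. The lowest cryopreserved sample was more than double the highest fresh-frozen one. The log2 fold change was 2.05 (SE 0.54, 95% interval 0.87 to 3.23), with a limma FDR of 0.105.

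The alpha subunit *tcp1* (AUIFUG00000002853) had a smaller difference than the other subunits of this side. It was at 255 CPM in F2, 278 CPM in F3, 490 CPM in C2, 378 CPM in C3 and 698 CPM in C5. The fresh-frozen samples differed little from each other, and all cryopreserved samples lay above them. The log2 fold change was 0.92 (SE 0.41, 95% interval 0.03 to 1.82; limma FDR 0.265), and 13.2% of all features had a larger one.

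On the other side of the ring, the gamma subunit *cct3* (AUIFUG00000004509) was at 94.4 CPM in F2, 69.4 CPM in F3, 269 CPM in C2, 156 CPM in C3 and 542 CPM in C5. The groups were apart, with a log2 fold change of 1.79 (SE 0.61, 95% interval 0.47 to 3.12; limma FDR 0.257). The zeta subunit *cct6a* (AUIFUG00000010208) was at 172 CPM in F2, 149 CPM in F3, 373 CPM in C2, 251 CPM in C3 and 750.4 CPM in C5. Its groups were also apart, and the log2 fold change was 1.36 (SE 0.52, 95% interval 0.23 to 2.49; limma FDR 0.265). The eta subunit *cct7* (AUIFUG00000043182) was at 95.8 CPM in F2, 82.0 CPM in F3, 198 CPM in C2, 121 CPM in C3 and 260 CPM in C5. Although these groups did not overlap either, the 95% interval of its log2 fold change of 1.04 (SE 0.57) ran from -0.21 to 2.30 and took in 0 (limma FDR 0.275).

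The theta subunit *cct8* (AUIFUG00000011723), which in *Caenorhabditis elegans* and human stem cells promotes assembly of the ring, was the member whose groups overlapped. Its level was 239 CPM in F2, 195 CPM in F3, 199 CPM in C2, 227 CPM in C3 and 254 CPM in C5. The cryopreserved values fell around the fresh-frozen ones, with C2 below F2 and C3 above F3. The means were 217 ± 30.9 CPM (SD, n = 2) and 227 ± 27.8 CPM (SD, n = 3). The log2 fold change was 0.06 (SE 0.46; limma FDR 0.930), and its 95% interval of -0.95 to 1.07 leaves room for a change in either direction. Since the median feature stood at -1.02, 24.0% of all features had a larger log2 fold change than *cct8*.

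**Figure D2:**
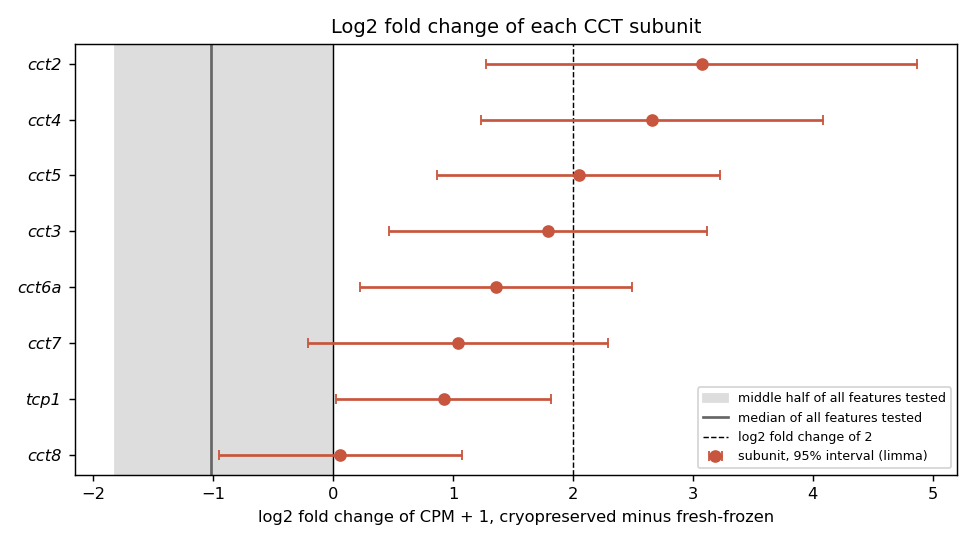
Log2 fold change of CPM + 1, cryopreserved minus fresh-frozen, of each CCT subunit with its limma 95% interval (bars); the gray band is the middle 50% of the 27255 features, the gray line their median and the dashed line a log2 fold change of 2. *cct2*, *cct4* and *cct5* lie above 2, and the intervals of *cct7* and *cct8* cross 0.

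The 3 members above a log2 fold change of 2 (*cct2*, *cct4* and *cct5*) were all on the side of the ring that binds ATP more tightly, but the fourth subunit of that side, *tcp1*, had the smallest log2 fold change of all except *cct8*. Over all features, 1652 of 27255 were above a log2 fold change of 2, and none of the 3 members passed the FDR. This is a description of 8 genes, and the difference between the sides was not tested.

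The cryopreserved samples kept 1 order in 7 subunits. In *tcp1*, *cct2*, *cct3*, *cct4*, *cct5*, *cct6a* and *cct7* alike, C3 was lowest, C2 was in the middle and C5 was highest. The share of all features with this order was not counted, so the order cannot be called particular to the ring. The median deviation of the 8 subunits from their fresh-frozen mean was 0.79, 1.47 and 2.45 in C3, C2 and C5 on the log2 scale, with an SD of 0.835 between the 3 samples. Over all features tested, the same median went the other way, at -0.21, -0.74 and -1.93 in C3, C2 and C5. The summed level of the spermatid and sperm markers had the order of the CCT subunits, lowest in C3 and highest in C5, and its part in the result was not tested. The median CPM of the library was also lowest in C5 and highest in C3 among the cryopreserved samples, and its part was not tested either.

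In all, the 8 subunits summed to 1039 CPM in F2 and 904 CPM in F3, and to 2329 CPM in C2, 1596 CPM in C3 and 4257 CPM in C5. Without *cct8*, the sums were 800.2, 708, 2130, 1369 and 4002 CPM in the same order. The technical runs of C2 differed by 1.33% (*tcp1*) to 6.35% (*cct5*) in the level of a subunit, far less than the males differed from each other.

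How far the difference depended on a single library was examined by leaving each out. The median log2 fold change of the 8 subunits was 1.63 without C2, 1.97 without C3 and 1.13 without C5. It was 1.74 without F2 and 1.42 without F3, settings that each rest on a single fresh-frozen sample. Over all features the median was -1.16, -1.35, -0.53, -1.08 and -0.98 in the same order. Without C2, C3 or C5, the 7 subunits other than *cct8* were higher in every cryopreserved than in every fresh-frozen sample. The same held for 14.1%, 16.8% and 18.1% of all features. Groups that are apart with all samples cannot overlap when 1 is left out, so this separation was fixed in advance and is no check. Without C3, however, 7 subunits passed an FDR of 0.05 in limma, where none did with all samples, and so did 2125 features of the whole table with higher levels, or 7.81%. With the male as a block, which rests on males 2 and 3, *cct2* (log2 fold change 2.26, FDR 0.00677), *cct4* (2.19, FDR 0.00280) and *cct5* (1.73, FDR 0.00611) passed in limma, as did 1235 of all features with higher levels, or 4.53%; that fit has 1 residual degree of freedom and takes its spread from the trend over all features.

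**Figure D3:**
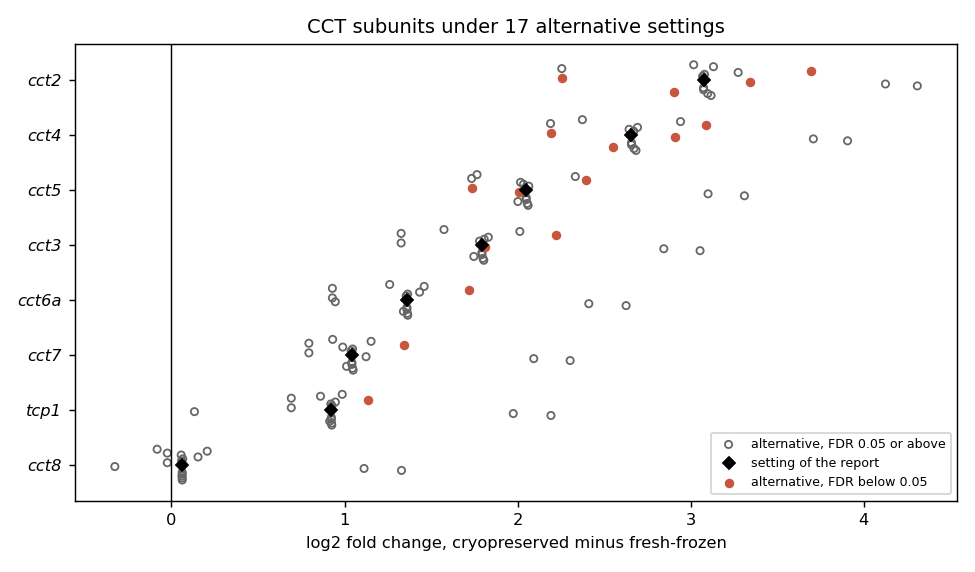
Log2 fold change of each CCT subunit under the setting of the report (black diamonds) and under 17 alternative settings (circles; red: limma FDR below 0.05). *cct2*, *cct4* and *cct5* stay at 1.73 or above in all of them, and only *cct8* crosses 0.

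A share of the summed CCT signal does not depend on how libraries were scaled to each other, so the makeup of that signal was compared within each library. The share of *cct8* was 23.0% in F2 and 21.6% in F3, against 8.53% in C2, 14.2% in C3 and 5.98% in C5. Every cryopreserved share was below both fresh-frozen ones, by 12.7 percentage points on average. The share of *tcp1* was 24.5% and 30.8% in F2 and F3 and 21.0%, 23.7% and 16.4% in C2, C3 and C5. The share of *cct7* was also lower in every cryopreserved sample, with 9.22% and 9.08% against 8.49%, 7.56% and 6.10%.

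Shares were higher in each cryopreserved sample for 4 subunits. These shares were defined only within the 8 subunits, so no background over all features stands beside the counts of separated shares. The share of *cct2* was 2.49% in F2 and 2.64% in F3 but 7.04% in C2, 5.71% in C3 and 15.9% in C5. That of *cct4* was 4.84% and 3.72% against 10.8%, 9.08% and 11.9%. The shares of *cct5* (10.3% and 7.99% against 16.5%, 14.2% and 13.4%) and *cct3* (9.08% and 7.68% against 11.5%, 9.75% and 12.7%) followed the same pattern. *cct6a* had 16.5% in both fresh-frozen samples and 16.0%, 15.7% and 17.6% in C2, C3 and C5, and was the only subunit whose shares overlapped between the groups. With 2 samples against 3, an exact permutation test cannot give a p below 0.1, and it gave 0.1 for *cct4*, *cct5* and *cct8* and 0.2 for *tcp1*, *cct2*, *cct3* and *cct7* (two-sided, 0.229 after adjustment over the 8 subunits). Shares sum to 100%, so a higher share of 1 subunit must be matched by lower shares of others.

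**Figure D4:**
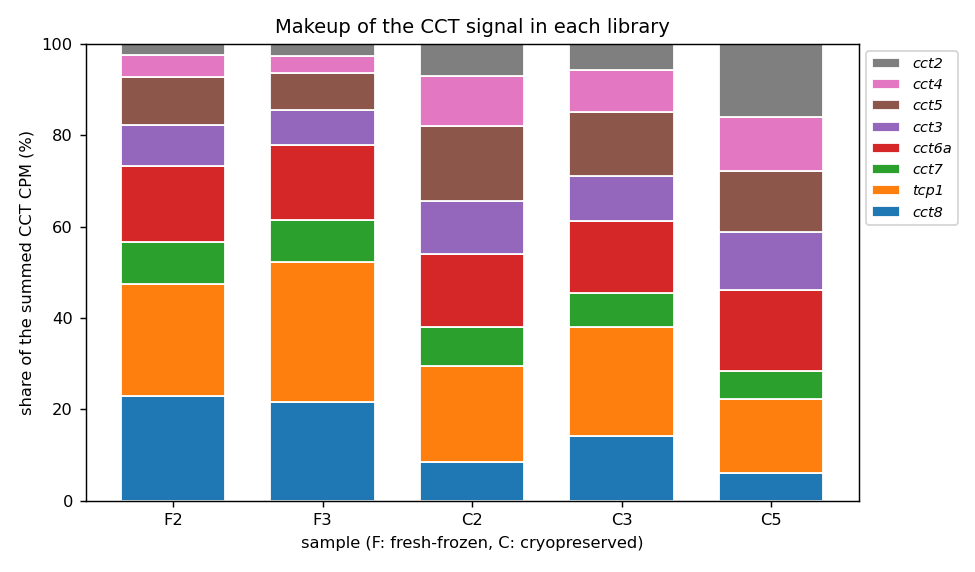
Share of the summed CCT CPM (%) taken by each subunit in each sample; a bar is 1 sample and its segments sum to 100%. The *cct8* segment is 23.0% and 21.6% in F2 and F3 and 5.98% in C5, and the *cct2* segment is 2.49% and 2.64% in F2 and F3 and 15.9% in C5.

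Set against *cct8* in the same library, each of the 7 other subunits was higher in all cryopreserved samples than in both fresh-frozen samples, as were 12.3% of all features. This comparison was not planned, and *cct8* was the member whose groups overlapped in these same data. The ratios therefore largely repeat the differences described above and are no separate evidence for them. For *cct2* the ratio to *cct8* was 0.108 in F2 and 0.122 in F3, and 0.825 in C2, 0.401 in C3 and 2.66 in C5. The ratio of *cct7* was 0.401 and 0.420 against 0.995, 0.531 and 1.02. The mean difference in log2 ratio ranged from 0.86 (*tcp1*) to 3.06 (*cct2*), and the exact permutation test gave p = 0.1 for *cct4* and *cct5* and 0.2 for the others, or 0.2 after adjustment. The ratio of *tcp1* to *cct2* in CPM, which is not corrected for length and is compared only between samples, was 9.85 and 11.7 in F2 and F3 and 2.99, 4.15 and 1.03 in C2, C3 and C5, and so was lower in every cryopreserved sample.

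Pearson's r over the 5 samples of each subunit's log2(CPM + 1) with the mean of the other 7 was 0.981 to 0.997 for the 7 subunits and 0.429 for *cct8*. These are descriptions over 5 libraries that share their scaling and their grouping. By the same measure, the genes outside the ring with a profile most like the mean of the subunits were *spata17*, *cyc1*, *ccdc6a*, *hydin* and *smyd4* (r from 0.9988 to 0.9997). *spata17* (AUIFUG00000014255), named for its expression in spermatogenesis, was at 131 CPM in F2, 118 CPM in F3, 252 CPM in C2, 193 CPM in C3 and 368 CPM in C5. Such likeness was common, since 1194 of the 13039 features compared, or 9.16%, had an r above 0.95.

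Proteins that work with CCT were read from lists of names. Prefoldin, the jellyfish-shaped complex that hands unfolded actin and tubulin to CCT, had 6 subunits in the table and no DEG, with a median log2 fold change of 0.67. Its ends were *pfdn1* at 2.04 (SE 0.96) and *pfdn4* at -1.13 (SE 0.81), the latter turning to 0.11 when the libraries were rescaled by TMM. Groups were apart in 3 prefoldin subunits with higher and 1 with lower levels in cryopreserved sperm, where 13.6% of all features were apart in the higher and 41.7% in the lower direction.

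Of the phosducin-like and thioredoxin-like cofactors, which bind CCT and modulate its folding of clients, *txndc9* (AUIFUG00000004287) was a DEG. It was at 11.7 CPM in F2 and 14.5 CPM in F3, and 165 CPM in C2, 103 CPM in C3 and 250 CPM in C5. This gave a log2 fold change of 3.54 (SE 0.72; limma FDR 0.0326), higher in all cryopreserved samples and in the C3, C2, C5 order of the subunits. The call held in 10 of 17 alternatives. *pdcl3* was at -0.36 (SE 0.74), and its sign turned under TMM, median centring, quantile normalization, the replicate block and without C5.

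The list of tubulin folding cofactors and related genes, some of which take tubulin on from CCT and join alpha to beta tubulin, gave no DEG. Its 6 features had a median of 0.25, from *tbcel* at -1.73 (SE 0.92) to the small GTPase *arl2* at 1.95 (SE 0.74). The chaperonin-like BBS proteins, relatives of the CCT subunits that act with CCT in assembling the BBSome of cilia, gave no DEG among 3 features either. The nearest was *bbs10* (AUIFUG00000004627), at 6.19 CPM in F2, 6.30 CPM in F3, 100 CPM in C2, 38.9 CPM in C3 and 267 CPM in C5. Its groups were far apart, with a log2 fold change of 3.82 (SE 0.93) and a limma FDR of 0.0724. The other members, *mkks* at -1.33 (SE 0.97) and *bbs12* at -0.75 (SE 0.93), were lower in every cryopreserved sample, and the list median was -0.75. Over all features, 13.6% were apart in the higher and 41.7% in the lower direction. The mitochondrial chaperonin, a relative of CCT in another compartment, had *hspd1* at 1.96 (SE 0.79) and *hspe1* at 1.34 (SE 1.01), with no DEG.

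Clients of CCT were read in the same way. The 9 tubulin features had a median log2 fold change of 2.20, and 7 of them were higher in C2, C3 and C5 than in F2 and F3, against 13.6% of all features. These 7 were alpha tubulins and the gamma tubulin *tubg1*. Some of them were low in fresh-frozen sperm too. In F2 and F3, *tuba1b* was at 1.09 and 1.40 CPM, *tuba1c* at 1.81 and 2.82 CPM, and *tubg1* at 3.26 and 11.1 CPM. DEGs made up 3 of the 9, against 1.54% of all features, and all were alpha tubulins: *tuba1a* AUIFUG00000022256 (log2 fold change 5.22, SE 0.91, limma FDR 0.0165), *tuba1a* AUIFUG00000022262 (3.55, SE 0.72, FDR 0.0331) and *tuba* (3.17, SE 0.70, FDR 0.0480). The first was at 7.29 CPM in F2, 4.87 CPM in F3, 321 CPM in C2, 77.5 CPM in C3 and 698 CPM in C5. Reads may be split between similar copies of such genes, so the level of a single copy is uncertain. The calls held in 12, 9 and 8 of 17 alternatives. The beta tubulin features in the list, *tubb* and *tubb3*, were not higher and their groups overlapped, but both were low. Over the samples, *tubb* was between 2.06 and 6.56 CPM and *tubb3* between 1.13 and 6.86 CPM. The log2 fold change of *tubb* was -0.39 (SE 0.90). Its limma interval of -2.36 to 1.59 leaves room for a change in either direction. No beta tubulin at a higher level was in the list, so beta tubulin as a whole cannot be read from these features. The lowest tubulin was the low *tubb3* at -0.93 (SE 0.78), which turned to 0.12 under median centring.

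The 7 actin features gave no DEG and a median of 0.58, from *actb* AUIFUG00000043434 at -2.52 (SE 1.20) to *acta1a* at 2.64 (SE 0.80). Groups were apart in 3 actin features with higher and 2 with lower levels in cryopreserved sperm (13.6% and 41.7% of all features), and *actb* had several features, so its reads may be split. Among 15 other clients (WD40 proteins, BBSome subunits, cell cycle proteins, *vhl* and *hdac3*) the median was -0.79. The DEG among them was the BBSome subunit *bbs7* (AUIFUG00000016543), at 32.1 CPM in F2, 13.7 CPM in F3, 210 CPM in C2, 131 CPM in C3 and 454 CPM in C5 (log2 fold change 3.40, SE 0.73, limma FDR 0.0425). The lowest was *ccne2* AUIFUG00000020877 at -2.45 (SE 1.03), and the *bbs7* call held in 9 of 17 alternatives.

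Heat shock factors, which control chaperone genes in many animals, had 8 features with a median of 0.96. *hsf5* AUIFUG00000030098, a germ cell member of the family in mammals and fish, was a DEG, at 15.3 CPM in F2, 6.01 CPM in F3, 317 CPM in C2, 128 CPM in C3 and 473 CPM in C5 (log2 fold change 4.65, SE 0.77, limma FDR 0.0130). All cryopreserved samples were above the fresh-frozen pair, and the call held in 13 of 17 alternatives. The other *hsf5* features were not DEGs, with AUIFUG00000000076 at 1.465 (SE 0.84, limma FDR 0.282) and the low AUIFUG00000013272 at 0.41 (SE 0.72, limma FDR 0.693). Reads may be split between these features. The *hsf1* features were not DEGs either. The low AUIFUG00000012259 was at 2.30 (SE 0.99), AUIFUG00000034555 at 0.66 (SE 0.91) and AUIFUG00000034629 at 0.05 (SE 0.78). The lowest member was *hsf4* at -2.63 (SE 1.22). There was no DEG with lower levels in cryopreserved sperm over all 27255 features, and so none in these lists; 3083 features were lower at an unadjusted limma p below 0.05. There was no DEG over all features without C2, under TMM, under median centring or with a constant prior. Every call in these lists was thus lost in each of these settings.

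**Figure D5:**
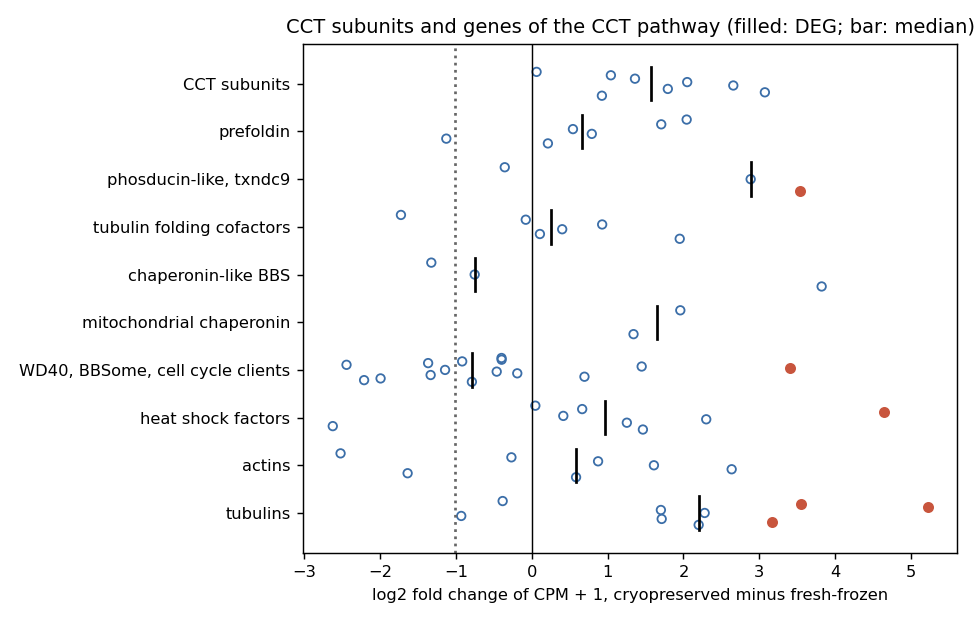
Log2 fold change of CPM + 1, cryopreserved minus fresh-frozen, of each feature in the lists of CCT partners and clients; filled points are DEGs, bars are list medians and the dotted line is the median of all features (-1.02). The CCT subunits and the tubulins have medians of 1.58 and 2.20. The list of WD40, BBSome and cell cycle clients, which also holds *vhl* and *hdac3*, has one of -0.79.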

How the data were processed

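Poly(A) RNA-seq libraries of sperm were made with a directional kit. The authors trimmed reads (Trimmomatic 0.39), mapped them to the blue catfish genome (TopHat2 2.1.1), counted them per gene (HTSeq 1.0) and tested them with edgeR. The genome build is not given in the sources used here. The authors deposited 1 table whose sample values are called RPKM. Because the columns have nearly equal sums (992942 to 997458), the deposited values were treated as CPM. The average log2 CPM that the authors deposited was used only to check this (Spearman ρ = 1.00 with the mean of the sample columns). Whole reads could not be recovered from the values, the read totals that the study gives per library were not used, and the columns of the authors' own fold changes and p-values were not used.

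The runs of C2 were averaged. Values were taken to log2(CPM + 1), and features with a mean above 1 CPM in a group were tested over the whole table by limma 3.58.1 under R 4.3.3 (trended prior) and adjusted by Benjamini-Hochberg. A fold change on this scale understates the change of low genes. Shares and ratios were compared with exact permutation tests over samples (scipy 1.17.1, pandas 2.3.3, numpy 2.4.6, Python 3.11.15, matplotlib 3.10.9). According to the methods of the study the number in a sample name identifies the male. F2 and C2, and F3 and C3, thus come from the same animals, and a replicate block for the male was fitted as an alternative. The deviations of these pairs from their group means over all features had r = 0.0206 and -0.0330. With 2 fresh-frozen samples, the deviations of F2 and F3 mirror each other. The mismatched pairs therefore gave the same values with the sign turned, and these r values cannot show whether the male had an effect. Other alternatives were pseudocounts, filters, TMM (without its usual weights), median centring, quantile normalization, a constant prior, single runs of C2 and leaving out each sample.

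Named were all subunits and the list members that passed or stood at an end of their list, with some others set beside them. The 5 features with the most similar profile among those with a mean above 10 CPM were also named. The members and lists were chosen with earlier results of these data known. A comparison of levels per coding length was planned and not run, for want of lengths, and no sequences are shown.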

Additional observations from a re-analysis of the deposited data

How the results depend on the processing

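The 421 DEGs with higher levels in cryopreserved sperm became 156 with a pseudocount of 0.1, 670 with a pseudocount of 5, 1420 under quantile normalization, 1136 with the replicate block, and 0 under TMM, median centring or a constant prior; leaving out 1 sample gave 0 (without C2) to 1840 (without C3). At an unadjusted limma p below 0.05, TMM, median centring and the constant prior had 3663, 3436 and 1879 higher features, and 1072 without C2. DEGs with lower levels went from 0 (3083 features at an unadjusted p below 0.05) to 4 with a pseudocount of 5, 100 under quantile normalization, 120 with the replicate block, 2 and 1 with the first or second run of C2, and 0 to 6965 on leaving out 1 sample. CCT subunits below an FDR of 0.05 went from 0 to 2 with a pseudocount of 5 (*cct2* and *cct4*), 4 under quantile normalization and 3 with the replicate block. They ran from 0 to 7 (without C3) on leaving out 1 cryopreserved sample. Higher features below the same limma FDR numbered 679, 1481 and 1235 of 27255 in the first 3 settings, and 2125 of 27193 without C3. Their median log2 fold change of 1.58 became 2.84 under TMM and 2.63 under median centring, which moved the median of all features from -1.02 to -0.11 and 0.03; quantile normalization moved it to -0.22. Relative to that median, the subunits stood at 2.60 as deposited, 2.96 under TMM, 2.60 under median centring and 1.69 under quantile normalization. Over 17 alternatives, 7 subunits kept a positive sign, from 0.13 (*tcp1*) to 4.31 (*cct2*). *cct8* went from 0.06 to 1.33 under TMM and 1.11 under median centring, turned to -0.33 under quantile normalization and -0.024 with the replicate block, and ran from -0.082 to 0.21 on leaving out 1 sample. The *cct6a* share difference ran from -0.65 to 0.29 percentage points. *pfdn4* turned to 0.11 under TMM, *tubb3* to 0.12 under median centring, and *pdcl3* to 0.89, 0.69, 0.24 and 0.15 under TMM, median centring, quantile normalization and the replicate block, and ran from -0.63 to 0.15 on leaving out 1 sample. The causes were not tested. Counting error was not estimated, and the levels per coding length were not run.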
